A study of Drosophila melanogaster with 12 samples.

Results

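Ir8a, Ir25a and Ir76b, the broadly used co-receptors of the ionotropic receptors of Drosophila melanogaster, are described here across adult antennae and larval antennal discs. The members were taken by name, and all 3 of them were found among the 15682 genes of the count tables. RNA was sequenced from 4 groups of 3 samples. Control animals were of the w1118 stock and mutant animals carried amos3, an allele of amos, the proneural gene that selects the precursors of the olfactory sensilla housing Or neurons, whereas most Ir neurons depend on the proneural gene atonal. Adult samples held about 300 antennae of flies of both sexes, frozen 0 to 4 h after eclosion and sieved off the head. Disc samples held 50 antennal discs of third-instar larvae, cut by hand from the eye disc. All animals were reared at 22°C. Each sample pools many animals, so that no value belongs to 1 fly. The strain background of the amos3 animals is not given in the sources used here, and the effects of genotype and background cannot be told apart.

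Ionotropic receptors are cation channels of sensory neurons that derive from ionotropic glutamate receptors. A channel is built from a tuning receptor, which sets what is detected, and one or more co-receptors, which are needed to carry the complex into the sensory cilium and to pass current. Ir8a works with the acid- and aldehyde-sensing tuning receptors of coeloconic sensilla and the sacculus, Ir25a and Ir76b work together with the amine-sensing ones, and Ir25a also serves, with Ir93a, the neurons that sense temperature and humidity. Ir25a and Ir76b are used in taste neurons too, and Ir25a transcripts are known from many Or neurons as well. In the larval disc the sensory precursors are only being selected, and receptor genes are switched on later, in the pupal antenna.

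Positions follow the BDGP6.54 assembly with the annotation of Ensembl release 115, which is not the build used for the counts. Ir8a (FBgn0052704) lies on the X chromosome from 9232726 to 9236585, with 1 transcript of 2811 bp. Ir25a (FBgn0031634) lies on 2L from 4830846 to 4835300, with 4 transcripts whose exons together cover 3587 bp. Ir76b (FBgn0036937) lies on 3L from 20108484 to 20111534, with 1 transcript of 2308 bp. All are on the minus strand, and their exons overlap the exons of no other annotated gene.

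Between 25150198 and 50252338 reads per sample were counted on genes, and every amos library was deeper than every control library. A count of 3 reads, used as the floor of detection, was 0.0597 to 0.119 CPM, which is reads of a gene per 1000000 reads on genes. The floor and the intervals below cover counting error only. The amos gene itself had 0 to 3 reads in any library and could not check the genotypes. Orco, the co-receptor of the odorant receptors, fell from 2929 ± 168 CPM in control to 89.4 ± 29.3 CPM in amos adult antennae (SD, n = 3 each, log2 fold change -5.06, adjusted p = 3.9e-06 from edgeR). The 7 regulators listed for the antennal disc were all detected in the discs, but also in adult antennae, so their detection does not mark disc tissue. Together they stood at 1172 to 1494 CPM in control discs and 1102 to 1137 CPM in control adult antennae. In the discs 4 eye regulators together stood at 239 to 304 CPM in control and 120 to 150 CPM in amos. Control disc replicate 5 stood apart, with a chi-square per degree of freedom of 99.2 and 134 against the other control discs, which gave 31.7 between them, and with 4 muscle genes together at 802 CPM, against 93.7 to 113 CPM in those and 50.3 to 65.1 CPM in amos discs. The part of eye and muscle tissue in the disc values was not tested.

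All of the co-receptors were abundant in control adult antennae and at low levels in discs of both genotypes, where Ir8a and Ir25a were close to the floor. Levels between genes are given in FPKM, which divides CPM by the exon length in units of 1000 bp. In control adults, Ir76b was at 84.0, 82.5 and 75.6 FPKM in replicates 5, 6 and 7. Ir25a was at 70.5, 71.9 and 67.4 FPKM in the same libraries. Ir8a was at 51.7, 47.9 and 44.1 FPKM. In each control library Ir76b thus ranked above Ir25a and Ir25a above Ir8a, with no overlap between neighbours in this order. The order of Ir76b and Ir25a rested on the correction for length, since in CPM Ir25a was at 251 ± 8.25 and Ir76b at 186 ± 10.3 (SD, n = 3 each).

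**Figure D1:**
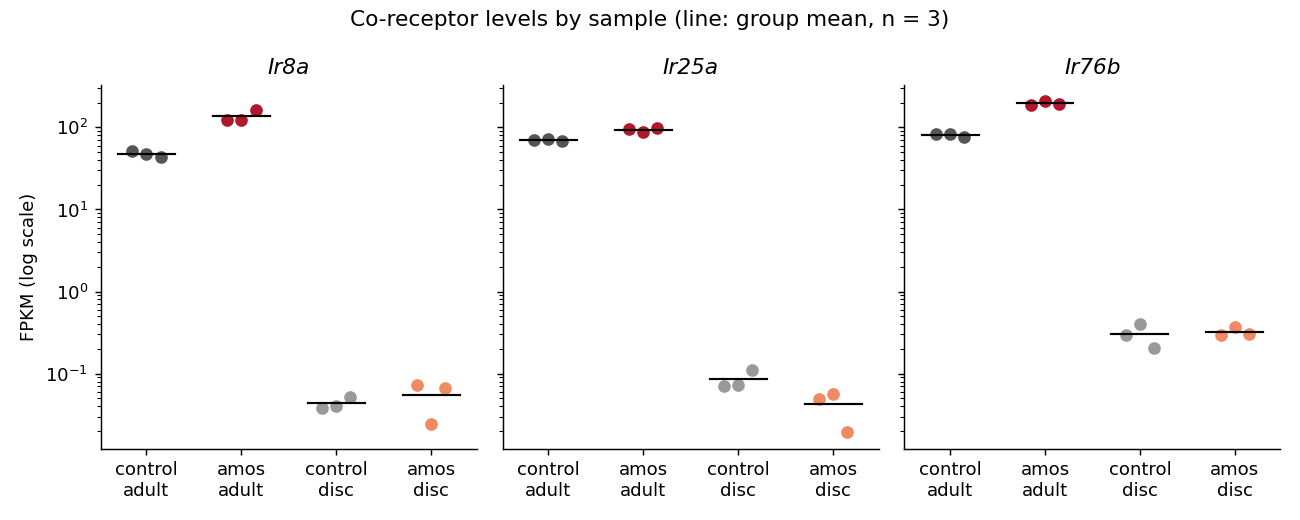
Length-scaled level (FPKM, log axis) of each co-receptor in each of the 12 libraries, grouped by genotype and tissue; points are libraries and lines are means of 3. Adult levels lie between 44.1 and 207 FPKM and disc levels at or under 0.404 FPKM, and in adults every amos library lies above every control library.

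In amos adult antennae all of the co-receptors were higher than in control, but by unequal amounts. Ir8a rose 2.80-fold and Ir76b 2.40-fold, while Ir25a, the member with the broadest known use, rose only 1.32-fold. Of the 9724 genes tested, 22.7% were called higher, 24.4% were called lower and 30.0% lay higher in every amos than in every control library. By the size of the change Ir8a ranked 525th, Ir76b 686th and Ir25a 2139th from the top of all genes tested. Scaled on 87 ribosomal protein genes, 3593 genes were called higher and 1258 lower, against 2203 and 2370 here. In a bulk sample a change in the number of cells of a type and a change in RNA per cell cannot be told apart.

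Ir8a, the partner of acid-sensing receptors, stood at 122, 124 and 162 FPKM in amos replicates 1, 2 and 3, against 44.1 to 51.7 FPKM in control. Amos replicate 3 was the highest library, and the groups did not overlap. The log2 fold change was 1.49 (standard error 0.14, adjusted p = 9.7e-05 from edgeR, here and below after Benjamini-Hochberg correction over every gene in the quasi-likelihood fit). Over 12 other settings the change lay between 1.34 and 1.75, with adjusted p-values of at most 0.00128 from edgeR or DESeq2. The lowest of these changes was obtained without amos replicate 3.

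Ir76b, which acts beside Ir25a in amine sensing and in taste, stood at 188, 207 and 195 FPKM in the amos libraries, against 75.6 to 84.0 FPKM in control. The amos libraries lay close together for this gene, with none apart from the others. The log2 fold change was 1.26 (standard error 0.080, adjusted p = 1.2e-05 from edgeR), and it lay between 1.22 and 1.52 over the 12 other settings, with adjusted p-values of at most 0.000287.

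Ir25a stood at 95.1, 87.1 and 99.4 FPKM in the amos libraries, against 67.4 to 71.9 FPKM in control. The groups did not overlap, but the gap between the highest control and the lowest amos library was only 15.3 FPKM. The log2 fold change was 0.40 (standard error 0.081, adjusted p = 0.00479 from edgeR). Over the 12 other settings it lay between 0.36 and 0.66, with adjusted p-values of at most 0.0278. The highest of these values came from scaling on 87 ribosomal protein genes, under which the median of all genes also moved, from -0.0036 to 0.25.

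**Figure D2:**
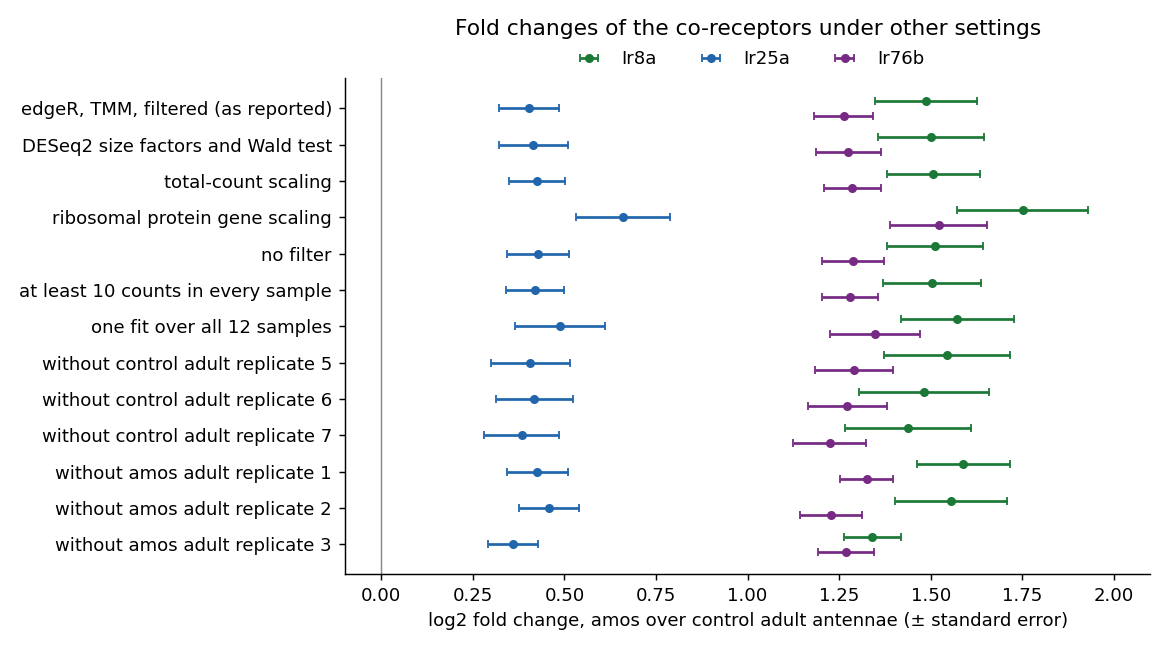
Log2 fold change of Ir8a, Ir25a and Ir76b between amos and control adult antennae (points, with bars of 1 standard error) as reported in the top row and under 12 other settings below it. Ir25a stays between 0.36 and 0.66 in every row, below the values of Ir8a and Ir76b, which stay between 1.22 and 1.75.

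The proportions of the co-receptors to each other were compared next. Ratios within a library need no scaling between libraries, and 6 of them were compared. Ir8a was at 0.654 to 0.733 times the level of Ir25a in control and at 1.28 to 1.63 times in amos antennae, so that the order of the pair was turned in every amos library. Ir76b was at 1.12 to 1.19 times the level of Ir25a in control and at 1.96 to 2.38 times in amos antennae. Both ratios to Ir25a were non-overlapping between the genotypes (2-sided exact permutation tests, p = 0.1 each, the smallest that 3 against 3 allows, and 0.12 adjusted over the 6 ratios). Ir8a against Ir76b was at 0.593 ± 0.0196 in control and 0.693 ± 0.122 in amos (SD, n = 3 each), the libraries overlapped, and no difference could be shown (exact permutation test, p = 0.2). Of the summed FPKM of the co-receptors, Ir25a made up 35.2% ± 0.949 in control and 22.0% ± 1.34 in amos. Ir8a made up 24.1% ± 0.844 and 31.8% ± 3.24, and Ir76b made up 40.6% ± 0.194 and 46.2% ± 3.39 (SD, n = 3 each). The sum itself was 198 ± 10.1 FPKM in control and 427 ± 26.8 FPKM in amos antennae.

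**Figure D3:**
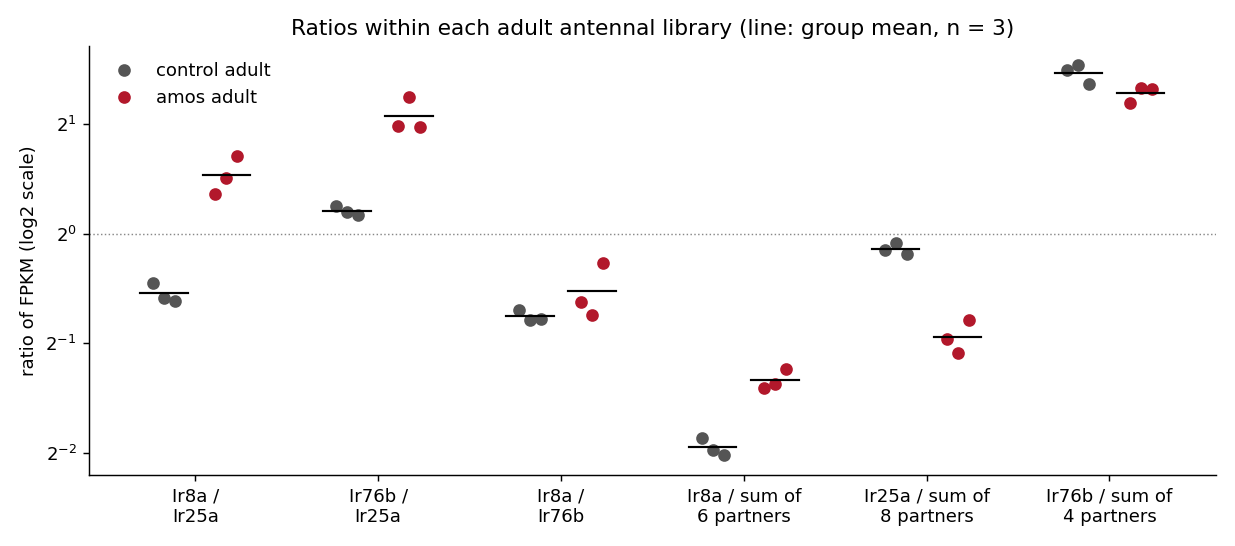
Ratio of FPKM values (log2 axis) within each adult library, for pairs of co-receptors and for each co-receptor against the summed FPKM of its partner receptors. Grey points are the 3 control and red points the 3 amos libraries, and lines are means. Of the 6 ratios, only Ir8a over Ir76b overlaps between the genotypes.

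The receptors that work with these co-receptors, here called partners, were also higher in amos antennae as a rule, each by its own amount. Of 6 tuning partners of Ir8a, 5 rose, with a median log2 fold change of 1.47 against -0.0036 over all genes tested. Among all genes tested 22.7% were called higher. Ir84a, the receptor of the food aromatic phenylacetic acid, showed the largest change of these (2.24, adjusted p = 1.6e-06 from edgeR), while Ir75a, an acetic acid receptor and the most abundant partner at 94.5 ± 4.51 FPKM in control (SD, n = 3), was at 0.13 and did not pass (adjusted p = 0.188). Of 4 amine-sensing partners of Ir25a and Ir76b, Ir41a, Ir75d, Ir76a and Ir92a, all rose, with a median of 1.95. Of 4 thermo- and hygrosensory partners of Ir25a, Ir21a (1.05), Ir40a (1.00) and Ir93a (1.41) rose, and Ir68a, a moist-air receptor, was at -0.93 (adjusted p = 0.0663 from edgeR). Exons of Ir75d overlap those of COX6AL2 and Prp6, exons of Ir76a those of CG14102, and exons of Ir21a those of an antisense RNA, so the counts of these genes are uncertain.

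Set against the sum of these partners, Ir25a was lower in every amos than in every control library, whichever partner was left out of the sum. Ir8a was likewise higher in every amos library whichever partner was left out, but the size of its shift depended on single partners. For Ir76b, whether the genotypes overlapped depended on single partners. Ir25a was at 0.878 to 0.941 times the sum of its 8 amine, thermo- and hygrosensory partners in control and at 0.470 to 0.579 times in amos antennae. Ir8a was at 0.246 to 0.275 times the summed FPKM of its 6 partners in control and at 0.377 to 0.425 times in amos antennae, a log2 shift of 0.61. Without the abundant Ir75a, a setting chosen after seeing the data, it was at 0.498 to 0.550 and 0.561 to 0.583 times, a log2 shift of 0.12. Ir76b against its 4 amine partners was at 2.58 to 2.90 in control and 2.29 to 2.50 in amos antennae. Without Ir92a these ranges were 3.02 to 3.37 and 2.93 to 3.59 and overlapped. They also overlapped without Ir75d, at 2.73 to 3.02 and 2.51 to 2.93, but not without Ir41a or Ir76a. With all partners in the sums, none of the 3 ratios overlapped between the genotypes (exact permutation tests, p = 0.1 each and 0.12 adjusted over the 6 ratios). By the medians of the fold changes, Ir8a (1.49) stood next to its partners (1.47), Ir76b (1.26) below the amine-sensing ones (1.95), and Ir25a (0.40) below both the amine-sensing and the thermo- and hygrosensory ones (1.03).

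**Figure D4:**
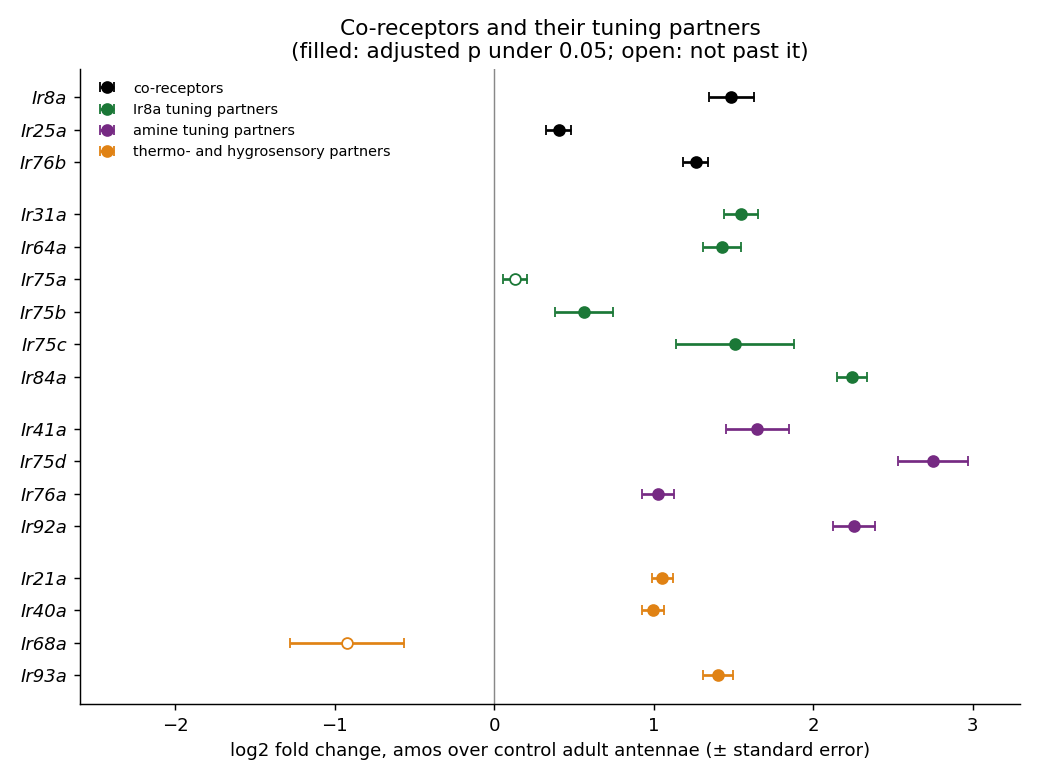
Log2 fold change between amos and control adult antennae (bars of 1 standard error, edgeR) of the 3 co-receptors, 6 Ir8a partners, 4 amine-sensing partners and 4 thermo- and hygrosensory partners; filled points have an adjusted p under 0.05. Ir75a at 0.13 and Ir68a at -0.93 are open, and Ir25a at 0.40 lies left of Ir8a and Ir76b.

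Other receptor genes gave no such uniform pattern. Of 29 ionotropic receptors of taste organs and larvae, 20 had at most 3 reads in every control adult library. In the deeper amos adult libraries 9 had at most 3 reads throughout. Of the 8 tested 3 were higher and 1 was lower, while 22.7% of all genes tested were called higher and 24.4% lower. Of 13 glutamate receptor genes, the relatives of the family that act at synapses, 6 were tested. Grik, Ekar and clumsy, of the kainate type, were higher, and Nmdar1, an NMDA receptor subunit, was lower. Or35a, an odorant receptor of coeloconic sensilla, rose with a log2 fold change of 1.24 (adjusted p = 6.4e-06 from edgeR), close to that of Ir76b.

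The co-receptors moved against the general neuronal genes. Elav, nSyb, brp, Syt1 and cpx, which mark all neurons, all fell, with log2 fold changes of -0.99 to -0.44, and their summed level went from 2635 to 2804 CPM in control to 1552 to 1925 CPM in amos antennae. Of 3 genes of Johnston organ neurons, which sense sound and movement, nompC was called higher, and together they stood at 5.26 to 7.62 CPM in control and 11 to 18.0 CPM in amos. The 3 support cell genes went from 435 to 473 CPM in control to 169 to 184 CPM in amos, with 2 called lower. The 4 muscle genes stood together at 4.40 to 93.0 CPM in control and 100 to 224 CPM in amos, with 2 called higher. The 4 taste neuron genes stood together at 49.3 to 58.8 CPM and 24.2 to 53.1 CPM, and the 5 odorant receptors of the maxillary palp at 30.1 to 49.1 CPM and 10.1 to 22.6 CPM, with 1 of each called lower and, of the taste genes, 1 called higher. Over all genes tested in adults, 22.7% were called higher and 24.4% lower. No gene of these lists was at or under 3 reads throughout a group of adult libraries. The part of these cell types in the changes of the co-receptors was not tested.

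In larval antennal discs Ir8a and Ir25a gave 3 to 11 reads and Ir76b 13 to 38 reads per library, and no difference between amos and control could be shown. Ir8a had 3, 3 and 4 reads in control replicates 1, 2 and 5, and 8, 3 and 8 reads in amos replicates 1, 2 and 3. Ir25a had 7, 7 and 11 reads in control and 7, 9 and 3 in amos libraries. These 2 genes had too few reads to enter the edgeR test, and the groups overlapped in CPM for Ir8a (exact permutation test, p = 0.6). For Ir25a they did not overlap, at 0.253 to 0.402 CPM in control and 0.0696 to 0.205 CPM in amos (exact permutation test, p = 0.1, the smallest possible). Such a gap was common, as 41.3% of the 8909 genes tested in discs were non-overlapping in one direction or the other. Ir76b had 19, 25 and 13 reads in control and 27, 38 and 30 reads in amos libraries, which overlapped in CPM, and its log2 fold change was 0.12 (standard error 0.38, adjusted p = 0.851 from edgeR). In discs 13.2% of genes were called in either direction.

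**Figure D5:**
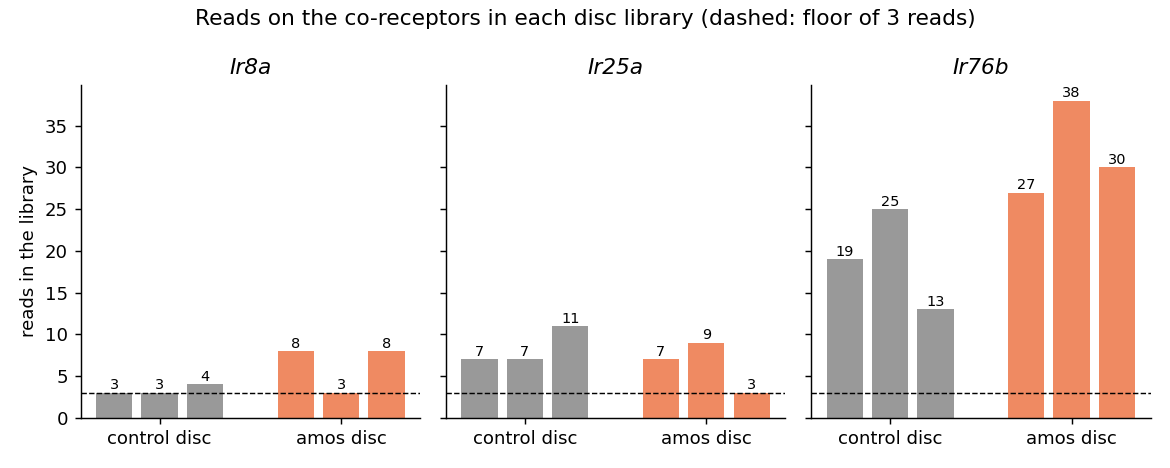
Reads counted on each co-receptor in each disc library, with the number above each bar; within a group, bars follow the replicate numbers 1, 2, 5 (control) and 1, 2, 3 (amos), and the dashed line is the floor of 3 reads. Ir76b has 13 to 38 reads, and Ir8a and Ir25a have 3 to 11.

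Ir76b was the highest co-receptor in every disc library, at 0.302 ± 0.0994 FPKM in control and 0.325 ± 0.0431 FPKM in amos (SD, n = 3 each), while Ir8a and Ir25a were at or under 0.112 FPKM. In control discs the level of Ir8a was 0.0908% of the adult level, that of Ir25a 0.122% and that of Ir76b 0.375%. Orco, taken as another gene of mature antennal neurons, was at 0.0664% of its adult level in the same libraries. In amos discs the shares were 0.0399% for Ir8a, 0.0448% for Ir25a, 0.165% for Ir76b and 0.0351% for Orco. Orco had only 1 to 2 reads in each amos disc library, under the floor, so its share there, and any comparison with it, is uncertain. The largest of the shares of Ir8a, Ir25a and Orco was 1.83 times the smallest in control and 1.28 times in amos discs, and the share of Ir76b was above all of them. Whether these reads arose in disc cells was not tested.

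The rise from disc to adult antenna was the largest change of all for these genes. In control, Ir8a was 1102-fold higher in adults by the reads summed over 3 libraries (95% interval 599 to 2299 by the exact binomial method, for counting error only). Ir25a was 821-fold higher (556 to 1269) and Ir76b 268-fold higher (206 to 353). The fitted log2 fold changes were 10.31, 9.92 and 8.32, with adjusted p-values of 5.5e-08, 6.7e-08 and 2.6e-07 from edgeR. In the amos stock Ir8a was 2525-fold higher in adults (1617 to 4195), Ir25a 2224-fold (1424 to 3694) and Ir76b 607-fold (497 to 750). The fitted values there were 11.62, 11.43 and 9.57, with adjusted p-values of 4.8e-08, 1.9e-08 and 9.4e-09. Of all genes tested, 43.2% were called higher in adults in control and 43.8% in amos. By size, Ir8a ranked 160th, Ir25a 203rd and Ir76b 476th from the top among 9770 genes in control. The comparisons of tissue and of genotype share samples, so their values are not independent of each other.

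Whether the amos effect differed between the tissues was tested over all 12 libraries. There 14.2% of 10319 genes were called with a higher log2 fold change in adults, at an adjusted p under 0.05 from edgeR. For Ir76b the adult effect exceeded the disc effect by 1.22 on the log2 scale (standard error 0.24, adjusted p = 0.00531 from edgeR). That fit shares its estimate of spread between the tissues. The standard error of the Ir76b disc effect was 0.38 in discs alone and 0.20 in the one fit, so the p-value may be too small. For Ir25a the difference was 1.47 (standard error 0.35, adjusted p = 0.0125 from edgeR), of which the larger part lay on the disc side. In the one fit over all libraries the Ir25a value was 0.49 in adults and -0.98 in discs. The disc value did not pass (adjusted p = 0.0866 from edgeR) and came from 3 to 11 reads per library. Ir25a and Ir8a, too low for the fit of discs alone, entered this fit through their adult reads. With no filter, discs alone gave Ir25a -0.98 with a standard error of 0.66 (adjusted p = 0.399 from edgeR), against 0.32 in the one fit. For Ir8a the difference was 1.25 (standard error 0.55, adjusted p = 0.129 from edgeR) and did not pass, with 3 to 8 reads per disc library. The call for Ir25a was lost without control disc replicate 5 (1.13, adjusted p = 0.10 from edgeR), the library that stood apart and held the most Ir25a reads. It was also lost without amos disc replicate 3 (1.05, adjusted p = 0.0871 from edgeR). The calls for Ir25a and Ir76b were both lost with a replicate block, in which only replicate 5 joined a control adult and a control disc library.

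The genes most like each co-receptor were sought over the 12 libraries by the root mean square difference of log2 CPM profiles, each centred on its own mean, among 10318 other genes. For Ir8a the nearest were Eaat2, an amino acid transporter gene (difference 0.36), CG9400 (0.38) and CtsK2 (0.41). For Ir25a they were CG18302 (0.32), CG10345 (0.32) and CtsK2 (0.37). For Ir76b they were PK1-R, a pyrokinin receptor gene (0.26), CG9631 (0.27) and CG6435 (0.34). In every disc library CG6435 had 0 reads and CG9631 at most 1 read. Their disc levels were thus set largely by the small count added before logarithms were taken. Pearson's r with the co-receptor was at least 0.997 for each of these genes, but the points share the large gap between the tissues. The co-receptors were less alike than this. Ir8a and Ir25a ranked 56th and 57th in each other's lists and differed by 0.66 with r = 0.992, Ir8a and Ir76b by 0.90 with r = 0.997, and Ir25a and Ir76b by 0.95 with r = 0.992.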

How the data were processed

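Stranded mRNA libraries were made from 12 samples in 4 groups, which were assigned by the sample titles. The authors deposited raw counts of reads per gene, without normalization, for 15682 genes and 5 lines of unassigned reads, which were left out here (reads with several alignments made up 14.0% to 27.1% of each library's total). The labels name cutadapt 1.2.1, TopHat2 2.0.9, HTSeq 0.5.4p3 and build BDGP5, whereas the paper's methods name other versions and a later annotation, and the strand setting is not given in the sources used here.

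Counts were tested with edgeR 4.0.16 (quasi-likelihood, TMM, filterByExpr) in R 4.3.3, over all genes and with Benjamini-Hochberg adjustment at 0.05, separately for each comparison of 2 groups and over all 12 samples for the interaction of genotype and tissue. The paper's methods name no test for these counts. For FPKM, counts were divided by the length of the merged exons and by the library's gene reads; 15002 genes had a symbol and such a length. Ratios were compared by 2-sided exact permutation tests in Python 3.11.15. The fits were tested on simulated data. The alternatives were DESeq2 1.42.0, other scalings and filters, a joint fit, each replicate left out, a replicate block, each partner left out of a sum (added after seeing the data), removal of the length trend in discs, and other units. The samples are called biological replicates in the paper's methods, but not traced to separate cultures, so p-values measure only the spread between these samples, which may be technical. No replicate pair held identical values. The 3 co-receptors were taken as given, partner and marker lists were written from general knowledge, and genes of like profile were the 3 nearest by a fixed rule. Members and lists were chosen with earlier results of these data known. No sequence is shown.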

Additional observations from a re-analysis of the deposited data

Results flagged for a closer look

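The log2 fold change of Ir25a and of Ir76b between amos and control was higher in adult antennae than in larval discs by the test of the interaction over all 12 libraries. The difference of the log2 fold changes was 1.47 for Ir25a (adjusted p = 0.0125 from edgeR) and 1.22 for Ir76b (adjusted p = 0.00531 from edgeR). For Ir25a the larger part lies in the disc value of -0.98 in the one fit over all libraries, which did not pass by itself (adjusted p = 0.0866 from edgeR) and rests on 3 to 11 reads per library. Ir25a was too low for the fit of discs alone and entered the one fit through its adult reads. Its call was lost without control disc replicate 5 (1.13, adjusted p = 0.10 from edgeR) and without amos disc replicate 3 (1.05, adjusted p = 0.0871 from edgeR). For Ir76b the disc side rests on 13 to 38 reads per library, and the call was kept with each library left out (0.88 to 1.34). The standard error of its disc effect was 0.38 in discs alone and 0.20 in the one fit, which shares its estimate of spread between the tissues. Both calls were lost with a replicate block, in which only replicate 5 joined a control adult and a control disc library. The control side of that fit rested on this pair, and the values are given below among the processing settings.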

How the results depend on the processing

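In adult antennae the co-receptors kept their direction and stayed past the threshold under each of the 36 refits run for them, and so they did under the 71 refits between the tissues. In discs, 2159 genes were called by DESeq2 and 2060 in one fit over all samples, against 1176, and 201 to 1376 with each library left out in turn, the lowest without control replicate 1. The disc value of Ir76b, not called in any of these fits, turned to -0.053 with the replicate block and lay between -0.092 and 0.39 with a library left out, the lowest without control replicate 5. With no filter on low counts Ir8a and Ir25a were at 0.34 and -0.98 in discs (adjusted p of 0.790 and 0.399 from edgeR), and in one fit over all samples at 0.32 and -0.98 (adjusted p of 0.711 and 0.0866 from edgeR). For the interaction, a replicate block joining adult and disc libraries of like number gave 1045 genes against 2302, with Ir25a at 1.83 (adjusted p = 0.150 from edgeR) and Ir76b at 0.60 (adjusted p = 0.393 from edgeR). In this block only replicate 5 held both a control adult and a control disc library, so the control side rested on that pair. With a library left out and no block, Ir25a lay between 1.05 and 1.67. No source used here says that a like number marks a shared batch. The deviations of same-numbered samples correlated at -0.199 and -0.146 between control and amos discs, and at -0.108 between control adult and disc replicate 5. Between amos adults and discs they correlated at 0.0192 to 0.111. There adult replicates 1 and 3 were closest to the same-numbered disc, and adult replicate 2 to disc replicate 3. In discs the block gave 1474 genes.

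In CPM in place of FPKM, the log2 ratio of Ir76b to Ir25a in control adults turned from 0.21 to -0.43, and with the longest transcript it was 0.15. In CPM the ratio of Ir76b to Ir8a was 0.47 in control and 0.25 in amos, that of Ir25a to Ir8a 0.90 and -0.18, and that of Ir76b to Ir25a 0.43 in amos. The log2 shifts of the 6 ratios between genotypes moved by less than the spread of libraries in the 36 values with a replicate left out and in the 3 values of ratios to partners in CPM. Of 18 values with a partner left out of a sum, chosen after seeing the data, 12 did so. The shift of Ir8a went from 0.61 to 0.12 without Ir75a, 0.82 without Ir64a and 0.71 without Ir84a, and that of Ir76b from -0.19 to -0.075 without Ir75d, -0.98 without Ir76a and 0.015 without Ir92a. In discs, statements on Ir8a and Ir25a are limited by counts of 3 to 11 reads.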
